A study of Mus musculus with 6 samples.

Results

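Amino acid transporters were followed across 6 mouse liver arrays as the genes whose symbol starts with Slc1a, Slc3a, Slc6a, Slc7a, Slc36a, Slc38a or Slc43a, leaving out Slc7a11 and Slc1a2. This name rule gave 57 of the 18342 genes that the probes named, 56 of them transporters or transporter subunits. The exception is Slc7a6os, which lies on the opposite strand of Slc7a6 and encodes another protein. Of the 57 members, 35 were well above background on all 6 arrays, 11 on 2 to 5 arrays, 5 on 1 array and 6 on none, by the scanner's own criterion. The 46 that were well above background on at least 2 arrays were tested.

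The livers came from mice on a BL6 background that lack the enzyme fumarylacetoacetate hydrolase, which completes the breakdown of tyrosine. Every group carried the Fah_del_tm1Mgo allele, so there was no Fah-sufficient liver. Fah mice carried that deletion alone. FCR mice also carried Rag2_del_tm1Fwa and the tm1Wjl deletion of the common gamma chain, and lack T, B and natural killer cells while keeping myeloid cells. NTBC blocks tyrosine breakdown upstream of the missing enzyme and was given in the drinking water at 7.5 µg/ml, called 100%. Under continuous NTBC there was 1 healthy Fah liver and 1 normal FCR liver. Under the regimen "off", described as 2 courses of withdrawal followed by resupply, there was 1 Fah tumour and 1 inflamed FCR liver, and under "2xoff/on", with 2 cycles of withdrawal and return, there was 1 of each again. The labels do not settle whether a withdrawn liver was taken in an off or an on phase, and ages were not given in the sources used here. Both 2xoff/on arrays lay on the second slide and the other 4 on the first, so regimen 2xoff/on and slide cannot be told apart. Tissue type and genotype change together after withdrawal: every withdrawn Fah sample is a tumour and every withdrawn FCR sample an inflamed liver.

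Levels are given on a log2 scale on which 0 is the 75th percentile of that array's signals and a step of 1 is a doubling; each compares 1 gene's probe across arrays and not 1 gene with another. That percentile lay between 363.0 and 888.7 signal units, and 60.5% to 74.5% of spots were well above background. Il2rg, the deleted common gamma chain, was reliably detected on the 3 Fah arrays (-3.40 to -1.94) and on no FCR array (-7.74 to -6.70). Rag2 was above background on no array, and the Fah probe gave signal on all 6 (-2.85 to -0.97), which does not say where it lies relative to the deleted stretch. The labels do not say that the arrays came from separate animals, so the p-values measure only the spread between these arrays, and the fits have 2 residual degrees of freedom. Where the 2 tumours or the 2 inflamed livers form a group, their spread is that between off and 2xoff/on, slide included.

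Amino acid transporters work as exchangers or as pumps driven by sodium or proton gradients. The Slc7a light subunits reach the cell surface only when bound to a heavy subunit, Slc3a2 or Slc3a1. The hepatocyte takes up alanine, glutamine and basic amino acids for glucose and urea synthesis, mainly through the sodium-coupled Slc38a carriers and Slc7a2. Slc1a5, Slc7a5 and Slc3a2 are known from growing cells. Several transporter genes are targets of the ATF4 pathway, through which cells respond to amino acid shortage.

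Withdrawal of NTBC was the contrast that separated the transporters most clearly. With the 4 withdrawn livers of both genotypes set against the 2 on continuous NTBC, 14 of 46 tested members passed at an adjusted p under 0.05 in limma's test, 11 higher and 3 lower. That is 30.4% of the members, against 11.9% of the 15382 genes tested, of which 8.65% were higher and 3.27% lower. Of the 11 that were higher, Slc7a3, Slc7a6, Slc6a19 and Slc36a2 were above background in the withdrawn livers only, so they entered the test through the group in which they are high. Among the 38 members detected in both sets of livers, 10 passed, 7 of them higher. The matching share of all genes detected in both sets was not computed, so this count has no background beside it. Among the risers were some carriers of neutral and basic amino acids (Slc1a4, Slc1a5, Slc38a1, Slc7a1, Slc7a3), and Slc3a1, Slc38a4 and Slc6a12 fell. These classes did not move as 1: of 9 tested Slc38a carriers, 3 differences were positive and 6 negative, with a median of -0.48. Of 5 cationic carriers 3 were positive and 2 negative. The withdrawn and continuous NTBC livers did not overlap for 15 members that were higher and 11 that were lower, against 20% and 20.9% of all genes. The median difference was 0.59 over the members and -0.02 over all genes, and 0.07 over the members when the 8 that were detected only after withdrawal were set to their lower bounds (0 for the 3 with no fold above 1). The count was 8 with quantile normalization (8.02% of genes), 7 with the authors' own values (6.09% of genes) and 7 without the 2xoff/on Fah tumour (9.11% of genes). With dim values raised to a common floor, a setting added after seeing the data, it was 0, as it was for all 15382 genes. Since these are whole tissues, fewer cells of a type and less RNA per cell cannot be told apart.

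**Figure D1:**
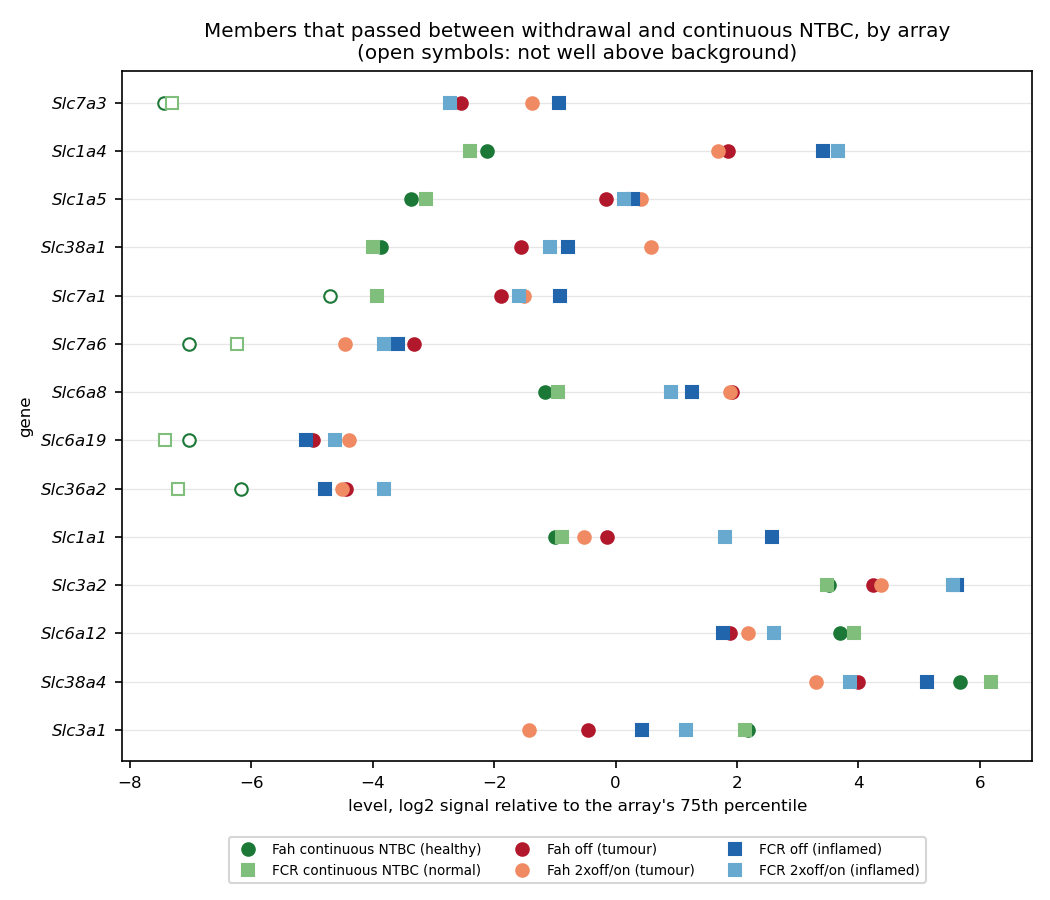
Level of each of the 14 members that passed between withdrawn and continuous NTBC livers, on each of the 6 arrays; the x axis is the log2 level as defined above, circles are Fah and squares FCR, and open symbols are not well above background. The green continuous NTBC symbols lie to the left of the others for 11 genes and to the right for Slc6a12, Slc38a4 and Slc3a1.

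Of the Slc1a carriers, 3 of 5 tested rose. Slc1a4, which exchanges alanine, serine, cysteine and threonine, stood at -2.12 in the healthy Fah liver and -2.39 in the FCR liver kept on NTBC. The off and 2xoff/on Fah tumours reached 1.85 and 1.69, and the off and 2xoff/on inflamed FCR livers 3.42 and 3.67. All 4 withdrawn livers were above both others, and the inflamed FCR livers were above the tumours. The difference was 4.91 ± 0.42 (SE), 30.1-fold, with an adjusted p of 0.000442. A second Slc1a4 probe differed by 3.61. It passed under 15 of 16 alternative settings, all but the common floor.

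Slc1a5, the glutamine exchanger of dividing cells, was at -3.37 and -3.12 in the healthy Fah and normal FCR livers. Its level was -0.15 and 0.42 in the off and 2xoff/on tumours and 0.28 and 0.14 in the off and 2xoff/on inflamed livers. The 4 withdrawn livers lay close together and far above the other 2. The rise was 3.42 ± 0.46, 10.7-fold, with an adjusted p of 0.00276. Slc1a1, a glutamate and cysteine carrier, rose by 1.87 ± 0.46 (adjusted p = 0.0321). It was at -1.0 and -0.88 under continuous NTBC, at -0.13 and -0.53 in the off and 2xoff/on tumours, and at 2.58 and 1.80 in the off and 2xoff/on inflamed livers. Slc1a3 and Slc1a6, glutamate carriers best known from brain, did not pass (1.08 and 0.53), and Slc1a7 was above background nowhere.

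The cationic carriers split. Slc7a3, a carrier of arginine, lysine and ornithine, was not well above background in the healthy Fah (-7.44) or normal FCR liver (-7.32). It was well above background in every withdrawn liver, at -2.55 and -1.38 in the off and 2xoff/on tumours and -0.93 and -2.73 in the off and 2xoff/on inflamed livers. It was at least 10.7-fold higher after withdrawal, the dim arrays being set to their lowest reliable signal, with an adjusted p of 0.00213. With normexp background correction its log2 difference was 1.32, below the log2 bound of 3.42, and the call was lost (adjusted p = 0.0538). Slc7a1, the widespread basic amino acid carrier that adult hepatocytes keep low, was at -4.70 (not well above background) and -3.94 under continuous NTBC. It lay at -1.88 and -1.51 in the off and 2xoff/on tumours and -0.91 and -1.60 in the off and 2xoff/on inflamed livers, a rise of 2.85 ± 0.51 (adjusted p = 0.009). Its other probe did not move with it: that probe differed by 0.22, and with the mean of both probes Slc7a1 no longer passed. Slc7a2, the basic amino acid carrier of hepatocytes, ranged only from 0.25 to 1.23 and did not pass (-0.54 ± 0.44). Slc7a4 and Slc7a14, relatives whose transport is less well defined, did not pass either.

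The heavy subunits moved in opposite directions. Slc3a2, partner of the leucine and basic-for-neutral exchangers, was at 3.52 and 3.48 in the healthy Fah and normal FCR livers. It was at 4.24 and 4.37 in the off and 2xoff/on tumours and at 5.63 and 5.56 in the off and 2xoff/on inflamed livers, all above the continuous NTBC livers. The rise of 1.45 ± 0.38 had an adjusted p of 0.0407 and passed under 7 of 16 alternatives. A second Slc3a2 probe differed by 1.17. On that probe the off inflamed liver (-2.87) lay below the healthy Fah (-2.48) and normal FCR livers (-2.64). Slc3a1, partner of the cystine and basic amino acid exchanger of kidney and gut, was at 2.18 and 2.13 under continuous NTBC. It was at -0.46 and -1.43 in the off and 2xoff/on tumours and at 0.44 and 1.17 in the off and 2xoff/on inflamed livers. It fell by 2.22 on the log2 scale (SE 0.49, adjusted p = 0.0204), which passed under 14 of 16 alternatives.

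Among the light subunits, 1 of 5 tested passed, and the median of the 5 was 1.68. Slc7a6, which exchanges basic for neutral amino acids, was not well above background under continuous NTBC (-7.04 and -6.24). It was well above background in all withdrawn livers, at -3.32 and -4.46 in the off and 2xoff/on tumours and -3.59 and -3.81 in the off and 2xoff/on inflamed livers. It was at least 2.86-fold higher (adjusted p = 0.0211). The call was lost with normexp, where the log2 difference was 0.08 (adjusted p = 0.925), with quantile normalization (adjusted p = 0.0733) and with the authors' values (adjusted p = 0.0562). Slc7a7, the same exchange in gut, kidney and macrophages, was at 0.38 in the healthy Fah liver, 1.75 in the normal FCR liver and 2.09 to 3.72 in the withdrawn livers, and did not pass (1.49 ± 0.52, adjusted p = 0.106). Slc7a9, the cystine exchanger that pairs with Slc3a1, was higher by 1.72 ± 0.52 and missed the threshold (adjusted p = 0.0667). Slc7a5, the leucine carrier that pairs with Slc3a2, and Slc7a8, its relative of epithelia, did not pass (0.65 and 1.68) and varied between the withdrawn livers by regimen.

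The Slc38a carriers held opposite calls. Slc38a1, a glutamine carrier outside the resting hepatocyte, was at -3.87 and -4.0 in the healthy Fah and normal FCR livers. It was at -1.56 and 0.58 in the off and 2xoff/on tumours and at -0.79 and -1.09 in the off and 2xoff/on inflamed livers, a rise of 3.22 ± 0.64 (adjusted p = 0.014). All 5 of its probes were higher, by 1.33 to 3.52. Slc38a4, the alanine carrier of hepatocytes, was at 5.68 and 6.18 under continuous NTBC, at 3.99 and 3.30 in the off and 2xoff/on tumours, and at 5.13 and 3.86 in the off and 2xoff/on inflamed livers. It fell by 1.86 on the log2 scale (SE 0.48, adjusted p = 0.0391), its second probe differed by -0.78, and it passed under 8 of 16 alternatives.

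Slc38a3, the glutamine and histidine carrier of hepatocytes near the central vein, went from 6.42 and 6.18 to between 3.59 and 5.41 without overlap and missed the threshold (-1.78 ± 0.53, adjusted p = 0.0647). Slc38a2, the carrier that cells raise when amino acids are short, gave opposite signs on its probes. The probe used for it differed by -1.23 ± 0.40 (adjusted p = 0.0887) and the other by 0.56, so no direction was read for it. Slc38a5 was lower by 1.47 without passing, its level of -2.17 in the normal FCR liver being the only one above -4.36. Slc38a7, Slc38a9 and Slc38a10, which include the lysosomal arginine sensor Slc38a9, differed by -0.48, 0.09 and -0.46.

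In the Slc6a family the creatine carrier and the betaine carrier moved oppositely. Slc6a8, which takes up creatine, was at -1.16 and -0.95 in the healthy Fah and normal FCR livers. It rose to 1.92 and 1.89 in the off and 2xoff/on tumours and to 1.25 and 0.91 in the off and 2xoff/on inflamed livers, by 2.55 ± 0.42 (5.84-fold, adjusted p = 0.00667). Slc6a12, which takes up betaine and GABA, was at 3.69 and 3.93 under continuous NTBC, at 1.89 and 2.19 in the off and 2xoff/on tumours and at 1.77 and 2.61 in the off and 2xoff/on inflamed livers, and fell by 1.70 on the log2 scale (SE 0.43, adjusted p = 0.0371). Slc6a13, a GABA and taurine carrier of liver, was lower by 1.28 ± 0.38 and missed the threshold (adjusted p = 0.0642). Slc6a6, the taurine carrier, stayed between 3.43 and 4.20 on all 6 arrays and differed by 0.03.

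Slc6a19 and Slc36a2, carriers of neutral amino acids and of proline and glycine that are typical of kidney and gut, were near background. Neither was well above background under continuous NTBC, where Slc6a19 gave -7.03 and -7.43 and Slc36a2 -6.17 and -7.21, and both were on all 4 withdrawn arrays (-5.10 to -4.39 and -4.79 to -3.82). Slc6a19 was at least 1.45-fold higher (adjusted p = 0.0406), and Slc36a2 at least 1.90-fold (adjusted p = 0.0481). With another background correction both differences were close to 0 and negative. Of 6 kidney tubule markers, Slc34a1 and Slc12a1 were above background on no array, the summed level was 0.327 to 1.23 on all arrays, and none of the 4 that were tested passed in this contrast. Of the 3 Slc43a genes none passed, with differences of 0.05 to 1.72.

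**Figure D2:**
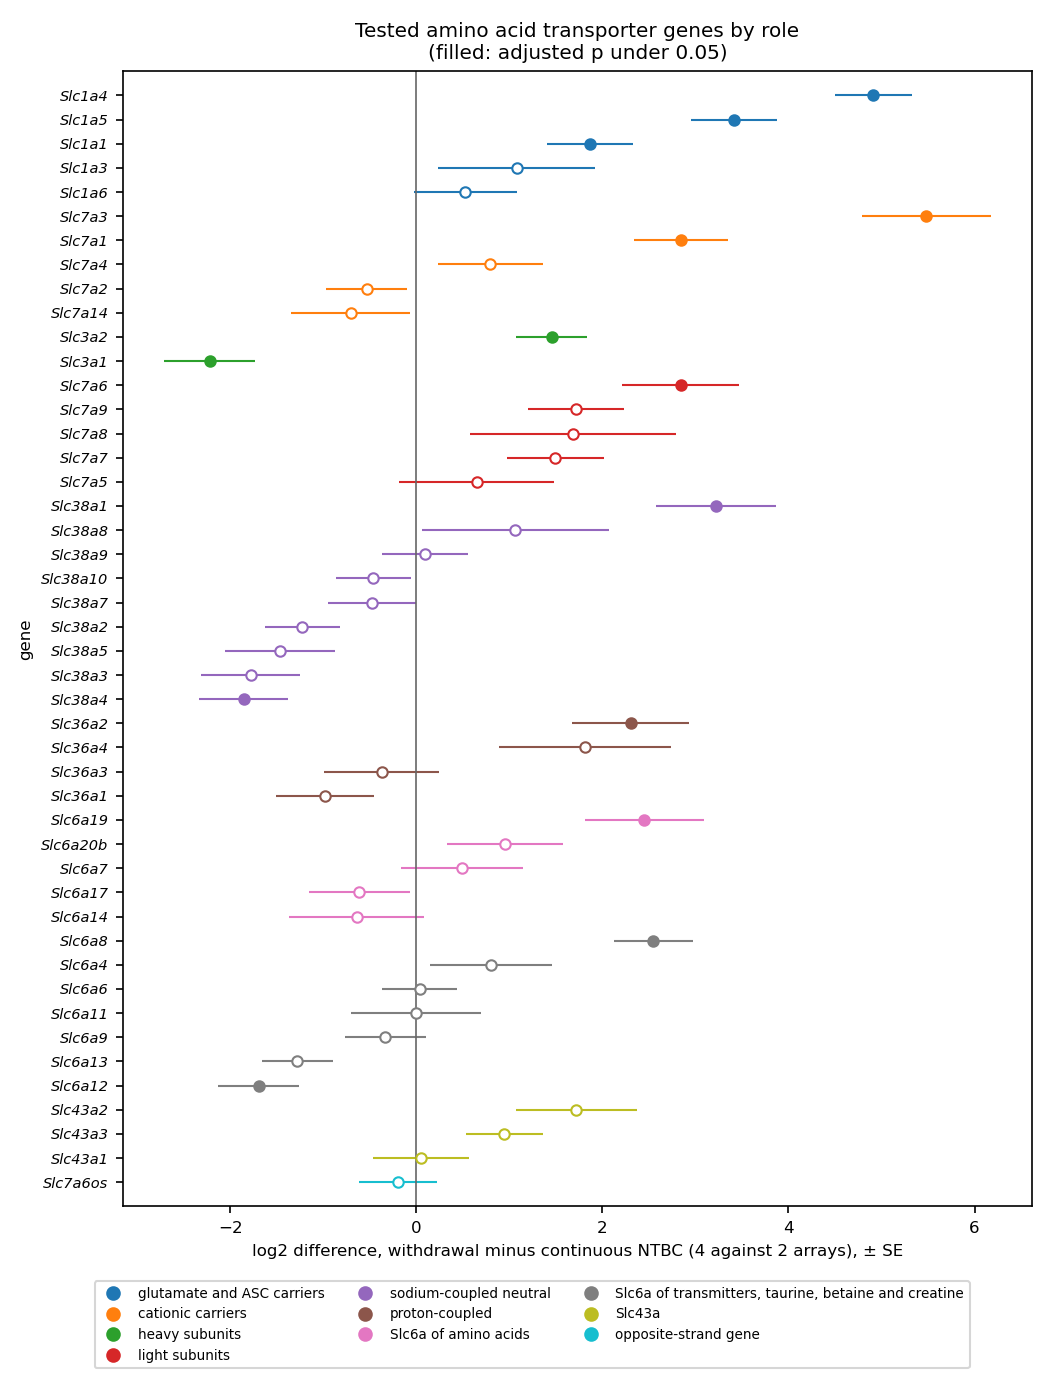
Log2 difference between withdrawn (4 arrays) and continuous NTBC livers (2 arrays) for the 46 tested members, with the standard error of the fit as bars; colours mark the role and filled points have an adjusted p under 0.05. The filled points right of 0 start at 1.45 for Slc3a2, and the 3 left of 0 lie between -2.22 and -1.70. The points of Slc7a3, Slc7a6, Slc6a19 and Slc36a2 are measured against signals not above background, so their size is not a level difference. Their lower bounds apply to the main processing only, and with normexp background correction each of these differences lay below its bound.

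Other cell types moved in the same contrast. The 8 hepatocyte markers on the array were above background on every array. Their summed level relative to the 75th percentile was 2970 to 3330 under continuous NTBC and 1390 to 2380 after withdrawal, with 1 of 8 passing (Tat, lower) and a median of -1.11. All 7 markers of dividing cells rose, their summed level going from 1.86 to 2.38 up to 11.7 to 45.3. Neutrophil markers rose for 6 of 7 (0.843 to 1.13 against 12.4 to 39.0), bile duct and progenitor markers for 5 of 8 (9.76 to 10.8 against 16.6 to 159), fibroblast markers for 4 of 8 and macrophage markers for 3 of 7. Their part in the transporters' differences was not tested.

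Genes around the transporters gave a mixed picture in the same contrast. Of 15 amino acid response genes 6 rose: Psat1 (4.78 ± 0.43) and Phgdh (3.95 ± 0.43), enzymes of serine synthesis, Vldlr (3.32 ± 0.51), a lipoprotein receptor, Atf3 (2.69 ± 0.44) and Ddit3 (2.02 ± 0.55), stress-induced transcription factors, and Ddit4 (1.57 ± 0.40), an inhibitor of mTOR signalling. Atf4 itself differed by 0.04, Trib3 by 0.23 and Asns, the asparagine synthetase, by 1.26 (adjusted p = 0.110). Chac1 and Cebpb were lower without passing. Of 15 amino acid sensing genes tested, Rragd, a GTPase that carries amino acid signals to mTOR, rose (4.34 ± 0.51, adjusted p = 0.00173) and no other passed. Of 9 enzymes of glutamine and glutamate metabolism, Gls2, the liver glutaminase, fell by 1.77 on the log2 scale (SE 0.39, adjusted p = 0.0216).

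Some of the promoters behind these calls are shown, for the leading Slc1a riser and for the heavy subunits that moved apart. Each run covers 150 bases before to 15 after the start that RefSeq annotates in GRCm38.p6, read along the gene's strand, and capitals mark the motif TGATGNAA, the core of the ATF4 response element, searched on both strands. The windows are chr11:20332699-20332863 (minus strand, Slc1a4), chr19:8713883-8714047 (minus strand, Slc3a2) and chr17:85028197-85028361 (plus strand, Slc3a1).
Slc1a4: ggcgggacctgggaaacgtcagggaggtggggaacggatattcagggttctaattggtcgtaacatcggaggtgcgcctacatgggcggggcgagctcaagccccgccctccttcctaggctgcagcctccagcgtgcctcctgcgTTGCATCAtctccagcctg
Slc3a2: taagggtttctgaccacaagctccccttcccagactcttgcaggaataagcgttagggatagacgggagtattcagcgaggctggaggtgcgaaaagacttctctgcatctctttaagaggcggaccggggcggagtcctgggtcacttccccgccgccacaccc
Slc3a1: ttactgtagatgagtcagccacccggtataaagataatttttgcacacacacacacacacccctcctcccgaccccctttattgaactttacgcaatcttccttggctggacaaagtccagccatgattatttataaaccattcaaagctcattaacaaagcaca
In Slc1a4 the reverse complement of the motif, TTGCATCA, begins 4 bases before the annotated start, and the other pair of windows holds no match. Windows of 300 bases were given for 39 members, and 2 of them (5.13%), Slc1a4 and Slc7a7, held the motif, against 4.51% of all 27025 genes with a window. Of the members that passed, 1 of 6 risers and none of 3 fallers with a window held it. A match is only a description of these letters.

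Taken by genotype, Slc1a4, Slc1a5 and Slc7a3 passed in Fah and in FCR. In Fah, the 2 tumours against the 1 healthy liver, 6 of 46 members passed, 5 higher and 1 lower, against 5.04% of all genes, 3.91% higher and 1.13% lower. Slc1a4 rose by 3.89 ± 0.59 (adjusted p = 0.0109), Slc1a5 by 3.50 ± 0.65 (0.0203 adjusted) and Slc6a8 by 3.06 ± 0.60 (0.0245 adjusted). Slc7a3 was at least 8.91-fold higher, and Slc3a1 fell by 3.12 on the log2 scale (SE 0.69). Slc7a1 passed only narrowly. The probe used for it was at least 8.03-fold higher, while its other probe differed by 0.155, so that fold is no minimum for the gene. In FCR, the 2 inflamed livers against the 1 normal liver, 3 of 46 passed, all higher, against 1.76% of all genes, 1.55% higher and 0.202% lower: Slc1a4 (5.93 ± 0.59), Slc7a3 (at least 12.8-fold) and Slc1a5 (3.33 ± 0.65). These fits assume that the single continuous NTBC liver varies like the withdrawn groups. Each withdrawn group holds 1 off and 1 2xoff/on array, so that spread holds regimen and slide and is not one between replicates. A slide block takes out regimen 2xoff/on together with the second slide, so it is no correction for slide alone. The Fah count was 2 without the 2xoff/on tumour (3.2% of genes), and 12 and 14 without the off and the 2xoff/on inflamed FCR liver (13.6% and 15.2% of genes), which enter through the shared spread. The FCR count was 11 without the 2xoff/on inflamed liver (11.4% of genes). With slide as a block the count was 13 in Fah (16.3% of genes) and 16 in FCR (12.3% of genes).

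Of the 46 tested members, 24 were higher and 15 lower in both genotypes, together 84.8% against 77.5% of all genes. By more than 1 in both, 14 were higher and 4 lower, 39.1% against 22.3% of all genes. The 14 include Slc7a3, Slc7a6, Slc6a19 and Slc36a2, which are measured against signals not above background and were tested through the withdrawn livers. Over both genotypes the lower bounds of Slc6a19 and Slc36a2 were 1.45-fold and 1.90-fold, under a doubling. The difference between the 2 responses passed for no member and for no gene (0% of 15382). At an unadjusted p under 0.05 it held for 2 members (2.15% of all genes, 331 of them): Slc1a1 responded by 2.40 less in Fah than in FCR (SE 0.92, adjusted p = 1.0) and Slc1a4 by 2.04 less (SE 0.83, adjusted p = 1.0).

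**Figure D3:**
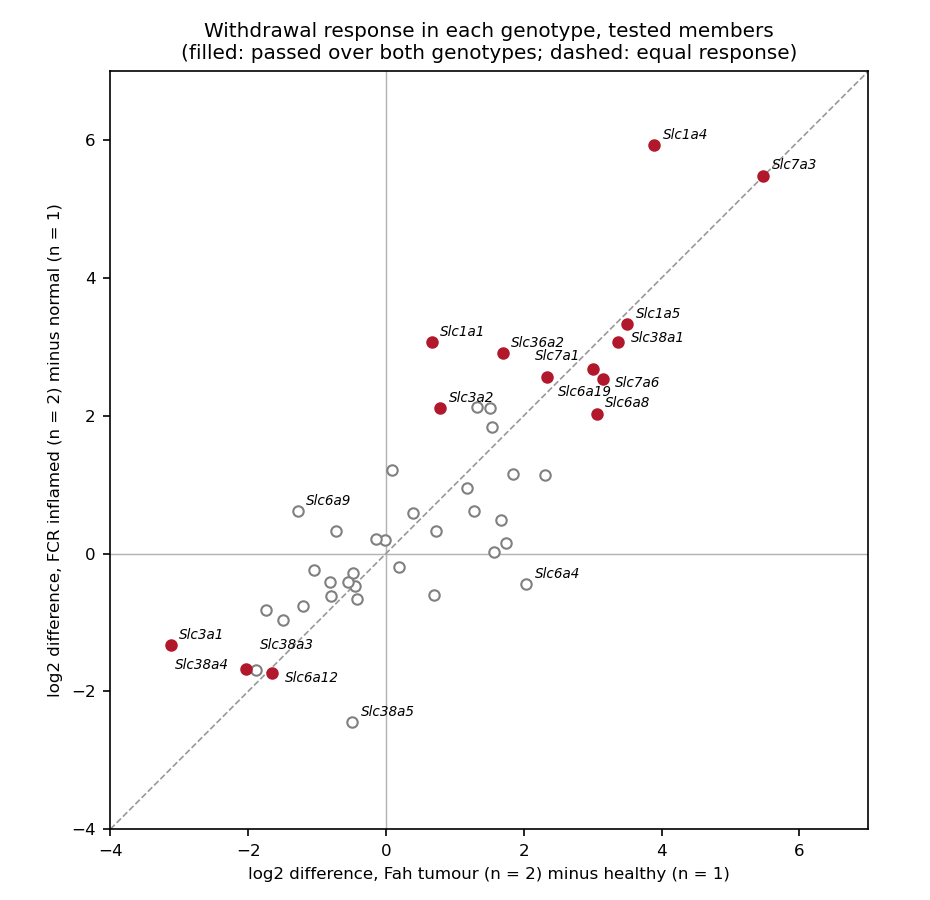
Withdrawal difference of each tested member in Fah (x axis, tumours minus healthy liver) and in FCR (y axis, inflamed minus normal liver), both in log2 units; filled points passed over both genotypes and the dashed line marks equal responses. Slc1a4 and Slc1a1 lie above the line, and Slc3a1 lies to its left at -3.12 in Fah and -1.33 in FCR. Slc7a3, Slc7a6, Slc6a19 and Slc36a2 are plotted against signals not above background in either genotype, so their places say nothing of equal responses.

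Fah tumours and inflamed FCR livers, 2 arrays each, differed in no member after adjustment, against 0.215% of all genes. At an unadjusted p under 0.05, 5 of 46 members (10.9%) were apart, against 9.15% of genes, and all 5 were lower in the tumours: Slc1a1, Slc6a9, Slc1a4, Slc3a1 and Slc3a2. Slc1a1 was lower by 2.52 ± 0.53 (adjusted p = 0.13), with the 4 levels given above not overlapping. Slc6a9, the glycine carrier, was at 3.26 and 2.84 in the off and 2xoff/on tumours and at 5.63 and 4.72 in the off and 2xoff/on inflamed livers, a difference of -2.13 ± 0.50 (adjusted p = 0.172). Slc1a4 differed by -1.77 ± 0.48, Slc3a1 by -1.75 ± 0.56, Slc7a5 by -1.57 ± 0.96 and Slc3a2 by -1.29 ± 0.44. With the second Slc3a2 probe the difference was -0.31, the off tumour (-1.87) being above the off inflamed liver (-2.87). Higher in the tumours were Slc6a4, the serotonin carrier (1.03), Slc43a2 (0.97), Slc7a8 (0.95), Slc43a1 (0.92), Slc6a20b (0.87) and Slc6a8 (0.82), none past the threshold. With slide as a block 5 members passed, against 6.31% of genes, all lower in tumours: Slc1a1, Slc1a4, Slc3a1, Slc6a9 and Slc7a5. Without the 2xoff/on inflamed liver 3 passed, against 4.63% of genes: Slc1a1, Slc6a9 and Slc7a5. B cell markers had a summed level of 2.46 to 4.12 in the tumours and 0.307 to 0.353 in the inflamed livers, bile duct and progenitor markers one of 64.0 to 159 against 16.6 to 56.9, and their part in the transporters' values was not tested.

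**Figure D4:**
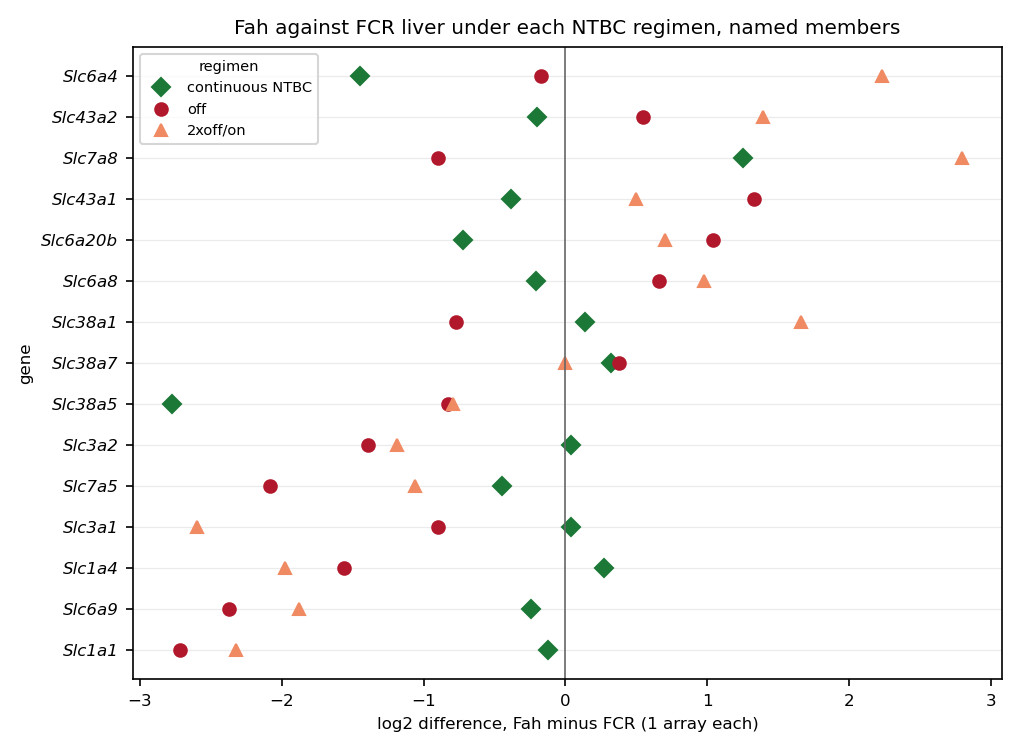
Log2 difference between the Fah and the FCR array under each NTBC regimen (1 array each) for the members named in the genotype comparisons. Under continuous NTBC the diamonds of Slc1a1, Slc1a4, Slc3a1, Slc3a2 and Slc6a9 lie near 0, and the circles and triangles of the withdrawn pairs lie between -2.72 and -0.90; Slc38a5 shows the reverse order.

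Genotype over all 3 regimens, 3 Fah against 3 FCR arrays with regimen as a block, gave no member past the threshold, against 0.312% of genes. At an unadjusted p under 0.05, 9 of 46 members (19.6%) differed, against 11.7% of genes. The leading ones were again lower in Fah: Slc1a1 (-1.72 ± 0.49, adjusted p = 0.27), Slc6a9 (-1.50 ± 0.43, adjusted p = 0.276), Slc38a5 (-1.46 ± 0.52), Slc7a5 (-1.20 ± 0.39), Slc3a1 (-1.15 ± 0.47) and Slc1a4 (-1.09 ± 0.44). The groups did not overlap for 2 of them, Slc6a9 and Slc38a5, and such lower separation was seen in 5.78% of genes. Higher values, none past the threshold, were led by Slc7a8 (1.05 ± 0.61). When the healthy Fah or the normal FCR liver was left out, 5 members passed, against 6.39% and 6.43% of genes: Slc1a1, Slc1a4, Slc3a1, Slc6a9 and Slc7a5. The remaining continuous NTBC liver then has no partner, so these fits rest on the withdrawn livers alone. They repeat the comparison of tumours and inflamed livers with slide as a block and are no separate support.

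Under continuous NTBC itself, 1 healthy Fah and 1 normal FCR liver, differences have no replicate check. Of 40 members above background in at least 1 of them, 2 were higher in Fah by more than 1 (background 2.96%) and 4 lower (background 4.88%). Slc6a2, the noradrenaline carrier, was at -4.25 in the healthy Fah liver, the only array where it was above background, at least 2.39-fold higher than in the normal FCR liver. Slc7a8 was at -0.98 against -2.23. Slc38a5 was at -4.94 in Fah and -2.17 in FCR, Slc6a4 at -4.83 and -3.39, and Slc7a7 at 0.38 and 1.75. Slc7a10, also among the 4 lower, was above background in the normal FCR liver only (-5.43). That is below the lowest reliable signal of the healthy Fah array (-5.12), so its difference has no lower bound.

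The 2xoff/on livers were also set against the off livers, with genotype in the fit. No member passed, against 0.793% of genes, and 9 of 46 (19.6%) had an unadjusted p under 0.05, against 17.1% of genes. Slc36a4, a high-affinity proline and tryptophan carrier, came closest. It was at -4.60 and -3.57 in the off Fah and FCR livers and at -4.60 and -4.61 in the continuous NTBC livers, and at -1.57 and -1.42 in the 2xoff/on livers. The difference was 2.59 ± 0.50 (adjusted p = 0.0627). Slc38a8, a glutamine carrier of the eye, was above background only in the 2xoff/on livers (-4.96 and -4.97), at least 2.38-fold higher there (adjusted p = 0.111). It entered the test through the 2xoff/on livers. Slc22a6, a kidney tubule marker, moved the same way in this contrast: it was at -1.39 and -0.57 in the 2xoff/on Fah and FCR livers and between -4.71 and -4.37 on the other 4 arrays, and rose by 3.47 ± 0.49 (adjusted p = 0.0231). It was the only one of the 4 tested kidney markers to pass, Slc34a1 and Slc12a1 were above background on no array, and its part in the transporters' values was not tested.

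Slc7a5 and Slc7a8 had lower values in the 2xoff/on livers, without passing. Slc7a5 was at -1.08 and 0.99 in the off Fah and FCR livers and at -2.92 and -1.86 in the 2xoff/on livers, near its continuous NTBC levels of -2.09 and -1.64. The difference was -2.34 ± 0.48 (adjusted p = 0.0738). Slc7a8 was at 1.12 and 2.03 in the off Fah and FCR livers and at -0.01 and -2.81 in the 2xoff/on livers (-2.98 ± 0.74, adjusted p = 0.113). Slc1a3 was above background only in the off livers, at least 2.24-fold higher there, and entered the test through them. Slc1a3 and Slc38a8 are both in the count above of members at an unadjusted p under 0.05. Slc7a5 and Slc7a8 passed with another background correction, against 4.27% of genes, and with arrays scaled to their medians, against 1.51%. No member passed with quantile normalization, the mean of probes or the authors' values. With single arrays left out the calls came and went, and the range of counts is given below.

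**Figure D5:**
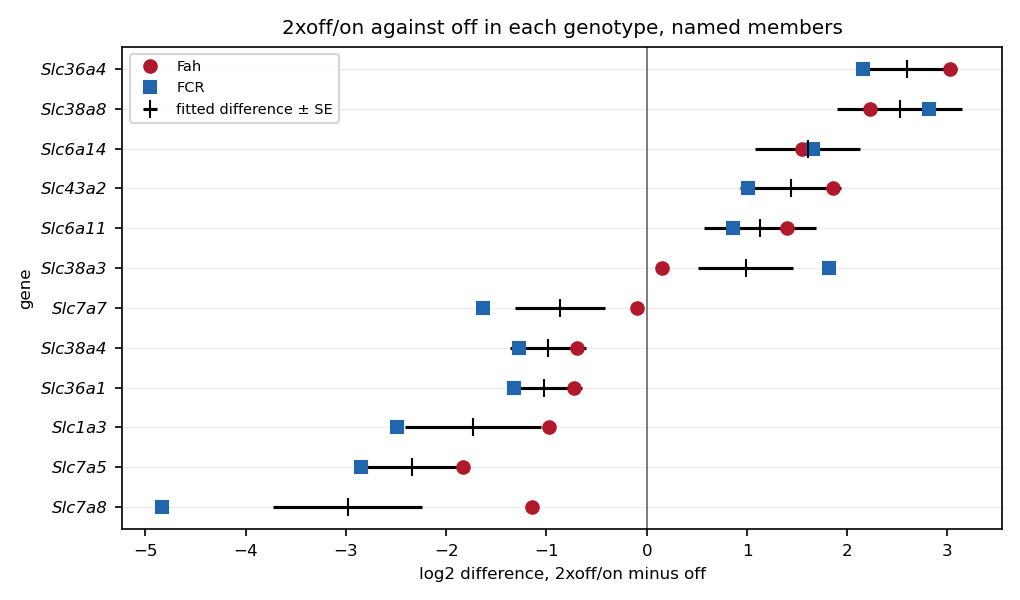
Log2 difference between 2xoff/on and off livers in Fah (circles) and FCR (squares), 1 array each, with the fitted difference and its standard error in black, for the 12 members named in this comparison. Both genotypes lie on the same side of 0 for all 12, which were picked for the size of the fitted difference. The fitted differences run from -2.98 for Slc7a8 (-1.14 in Fah, -4.83 in FCR) to 2.59 for Slc36a4 (3.03 in Fah, 2.16 in FCR).

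Each regimen was also set against continuous NTBC on its own, with genotype in the fit and the same 2 continuous NTBC livers in both. Off livers differed in 17 of 46 members, against 17.1% of genes, and 2xoff/on livers in 18, against 19.9%. Slc7a7 (1.93 ± 0.45), Slc7a8 (3.17 ± 0.74) and Slc7a5 (1.82 ± 0.48) rose in the off livers, and their values in the 2xoff/on livers were 1.06, 0.19 and -0.52. Slc38a3 fell by 2.28 on the log2 scale in the off livers (SE 0.47), with -1.29 in the 2xoff/on livers. Slc36a4 (3.11 ± 0.50) and Slc43a2 (2.44 ± 0.50) rose in the 2xoff/on livers, with 0.52 and 1.0 in the off livers. Slc36a1, a lysosomal proton-coupled carrier, fell by 1.5 on the log2 scale in the 2xoff/on livers (SE 0.37), and its second probe disagreed in sign over both regimens (0.37 against -0.98).

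The comparison that the submitters state joins the 2 Fah tumours against the normal and the 2xoff/on inflamed FCR livers, and so mixes regimens on the FCR side. No member of 45 tested passed, nor did any of 15175 genes (0%), and 5 members (11.1%) had an unadjusted p under 0.05 against 11.6% of genes. Slc7a8 was higher in the tumours by 3.07 ± 0.58 (adjusted p = 0.295), Slc6a8 by 1.92 ± 0.67. Lower were Slc3a1 (-2.60 ± 0.56, adjusted p = 0.304), Slc6a9 (-1.60 ± 0.36) and Slc38a3 (-1.26 ± 0.42). These are the 5. Without the 2xoff/on inflamed FCR liver, which leaves the tumours against the normal FCR liver alone, 13 members passed, against 14.7% of genes.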

How the data were processed

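Cy3-labelled RNA of 6 livers was hybridised to 1-colour mouse arrays. The deposited intensity values are the background-corrected processed signals of Agilent Feature Extraction 10.5, per the submitters' processing notes (10.7.3.1 per the file headers). The log2 values that the authors deposited in their own table have array medians of 6.45 to 6.48; their scaling and centring are unknown, and they served as an alternative.

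Control spots (and spots flagged as outliers) were left out, spots of a probe averaged, and log2 signals set against each array's 75th percentile. Of 41174 probes, 26912 were named through their accession and the RefSeq gene table, and 14233 were not; 29 lacked a value on an array. For each gene the probe with the highest mean was used; 22 members had several. Genes detected above background on 2 or more arrays were fitted with limma 3.58.1 in R 4.3.3 (lmFit, eBayes with trend), as 4 group means or as genotype plus regimen, two-sided, with Benjamini-Hochberg adjustment over all genes tested and a threshold of 0.05. No array had saturated spots. The number of arrays limits the precision. Scripts were tested on simulated data.

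The members and lists were chosen with earlier results of these data known. Named were the members that passed, the 6 largest rises and falls of each comparison among members detected throughout the higher group, and liver transporters. Slc38a6, Slc6a16, Slc6a20a, Slc6a21 and Slc6a5 were not analysed here. Alternatives covered background correction, normalization, filter, probe choice, variance trend, the authors' values, slide, regimen and each array left out.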

Additional observations from a re-analysis of the deposited data

Results flagged for a closer look

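For 3 of 46 tested members (6.52%, against 6.46% of all genes) every withdrawn liver of one genotype lay above its continuous NTBC liver and every withdrawn liver of the other genotype lay below. Slc6a4, the serotonin carrier, was higher by 1.13 (off) and 2.94 (2xoff/on) in Fah and lower by 0.14 and 0.74 in FCR, so its withdrawal response was 2.48 ± 1.31 (SE) larger in Fah. Slc6a9, the glycine carrier, differed by -1.07 and -1.49 in Fah and by 1.06 and 0.16 in FCR, and the difference of the responses was -1.89 ± 0.87. Slc7a6os, the opposite-strand neighbour of Slc7a6, differed by -0.69 and -0.77 in Fah and by 0.51 and 0.15 in FCR, a difference of -1.06 ± 0.84. In limma's test of the difference itself none of the 3 passed (adjusted p = 1.0 for each, and 0.79 for the lowest of all genes), and no group was large enough for a check of single arrays.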

How the results depend on the processing

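No paired analysis was possible by replicate number because those numbers were given in accession order and mark no shared animal; fits with regimen or slide as a block are given with their results. Over named members, 1517 alternative values were computed: 1316 kept direction and side of the threshold, 97 lost the call, 88 gained one and 16 turned. The 14 members of the withdrawal contrast became 8 with quantile normalization, 7 with the authors' values, and 7 to 19 with an array left out (7 without the 2xoff/on Fah tumour; it could not be fitted without a continuous NTBC liver). With values floored at -5.12, chosen after seeing the data, the count was 0 over both genotypes, in Fah and in FCR, and 0 of 15382 genes passed; 361 genes then had zero variance and the prior degrees of freedom fell from 6.85 to 1.43. The 6 members in Fah became 2 with the authors' values, 13 with slide as a block and 2 to 14 with an array left out. The 3 in FCR became 1 with quantile normalization, no filter or the authors' values, 16 with slide as a block and 3 to 11 with an array left out. Counts of 0 became 2 with normexp background correction for genotype (2.26% of genes), tumour against inflamed liver (1.25%) and 2xoff/on against off (4.27%). With slide as a block 5 passed for tumour against inflamed liver (6.31% of genes). Only 2xoff/on arrays lay on the second slide, so that block takes out regimen 2xoff/on too. In the withdrawal contrast it gives the same differences as off livers against continuous NTBC, so the alternatives there count that estimate more than once. For 2xoff/on against off 2 passed with array medians (1.51% of genes), and 1 with no filter (1.13%) or no trend (0.852%). The share of all genes moved with the settings too, left-out arrays included, so these counts alone are not particular to the members. Leaving out an array gave 0 to 5 members for genotype, 0 to 3 for tumour against inflamed liver, 0 to 4 for 2xoff/on against off and 0 to 13 for the submitters' comparison.

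Directions turned as follows, and the cause was not tested. With normexp, Slc36a2 (-0.10) and Slc6a19 (-0.12) in the withdrawal contrast, Slc7a6 in Fah (-0.03), Slc6a20b between tumour and inflamed liver (-0.27), Slc38a8 (-0.01) and Slc6a11 (-0.08) between 2xoff/on and off, and Slc6a19 in the submitters' comparison (-0.26). With the mean of probes, Slc38a2 in FCR (0.07), and Slc36a1 (0.12) and Slc38a4 (0.18) between 2xoff/on and off. Without single arrays, Slc38a1 for genotype (-0.32 without either 2xoff/on array, range -0.32 to 0.90), Slc7a8 between tumour and inflamed liver (-1.47 without the 2xoff/on inflamed liver, up to 3.36), the difference of responses of Slc7a5 (0.31 without the off inflamed liver, down to -2.54), and, in the submitters' comparison without the normal FCR liver, Slc1a5 (-0.01, up to 3.25) and Slc6a19 (-0.06, up to 2.74). Scaling to array medians moved the median of all genes in the withdrawal contrast from -0.02 to -0.33, and that of the members from 0.59 to 0.27; normexp moved them to -0.20 and -0.12. Signal over background limits Slc7a3, Slc7a6, Slc6a19 and Slc36a2, whose differences are lower bounds under the main processing only. With normexp each lay below its bound.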

Other observations

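Of 22 mitochondrial, lysosomal and other amino acid carriers, 20 were tested in the withdrawal contrast, 15 of them with a negative difference, and the median was -0.32 (-1.66 to 2.56). Passing were 1 higher and 1 lower. Slc15a3, a lysosomal histidine and peptide carrier of immune cells, rose by 2.56 ± 0.59 (adjusted p = 0.0247 in limma's test), and Slc17a5, the lysosomal sialic acid carrier, fell by 1.56 on the log2 scale (SE 0.43, adjusted p = 0.0499). Slc25a13, the aspartate-glutamate carrier of liver mitochondria that serves the urea cycle, was lower by 1.37 ± 0.41 and missed the threshold (adjusted p = 0.064), and its relative Slc25a12 differed by 0.01. Slc25a15, the ornithine carrier, differed by -0.07. None of 5 accessory proteins of transporters passed. None of these lists had a gene past the threshold between tumours and inflamed livers, between genotypes, or between 2xoff/on and off livers.

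Of the 11 members that were not tested, Slc1a7, Slc38a11, Slc6a15, Slc7a12, Slc7a13 and Slc7a15 were above background on no array. Slc6a18, an epithelial carrier of neutral amino acids, was above background only in the off inflamed FCR liver (-4.98, against -8.76 to -7.29 elsewhere). Slc6a3, the dopamine carrier, Slc6a2 and Slc7a10 were above background on 1 array each.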
